A study of Homo sapiens with 6 samples.

Results

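The genes described here encode the protein subunits of the mitochondrial ribosome, measured in MDA-MB-231 cells with and without the avermectin selamectin. They were taken by symbol, as every gene whose symbol begins with MRPL (large subunit) or MRPS (small subunit) and a number, without pseudogenes. A gene had to lie on a transcript cluster, the group of probes that the array assigns to 1 locus, annotated with that symbol alone. This gave 73 of the 18417 genes with a name on the array: 50 encode proteins of the large subunit and 23 proteins of the small subunit. Another 5 genes with these prefixes are not members. Of these, MRPL51, MRPS6, MRPS24 and MRPS28 lie on clusters annotated with several symbols. No cluster carried the symbol MRPS36 after symbols were updated through RefSeq. Whether the array measures that gene under another symbol was not checked. MDA-MB-231 is an established cell line from a human breast cancer of the triple-negative kind, with mesenchymal growth. One group of 3 arrays came from cells given 1 µM selamectin, a macrocyclic lactone used as a veterinary antiparasitic, for 24 h. The other group of 3 arrays came from cells called untreated in the sample titles and vehicle-treated in the protocol. Which of these the cells received is not settled. All 6 arrays came from this 1 line, without any genetic change named in the labels. The series title presents avermectins as inhibitors of the SIN3 corepressor.

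Mitochondria carry their own ribosome, which makes the few proteins of the respiratory chain that mitochondrial DNA encodes. Its ribosomal RNAs come from that DNA, while all of its proteins are encoded in the nucleus, made in the cytosol and imported. Some of them descend from bacterial ribosomal proteins, and others are found only in the mitochondrial particle, where they add to a shell around a shortened RNA core. The genes are known to be active in most tissues and to be driven largely by promoters of the housekeeping type.

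Array medians over all clusters lay between 7.47 and 7.51 on the log2 scale of the deposited values. The first principal component of all 18417 genes held 45.8% of the variance and placed the selamectin arrays on 1 side and the untreated arrays on the other. Selamectin array 3 stood apart from the other 5 arrays on the second component, which held 20.8%, and the count of calls below is also given without it. Mesenchymal markers fitted the labelled line: VIM, CD44, AXL, CAV1, TGFBI and LGALS1 had means over the 6 arrays between 9.62 and 12.78. The 5 measured epithelial markers ran from 6.11 to 13.75: EPCAM and CDH1 were lowest, at 5.97 and 6.01 with selamectin and at 6.24 and 6.27 in untreated cells, and the keratins KRT8 and KRT18 read far higher. The 5 measured leukocyte markers had means between 4.83 and 7.30, and the 6 endothelial ones between 5.53 and 9.23, the upper end being that of CDH5 (8.93 with selamectin, 9.52 untreated). None of these 3 lists held a gene past the threshold in limma, with 2 epithelial, 0 leukocyte and 2 endothelial genes at an unadjusted p under 0.05, and CD44 rose among the mesenchymal ones (0.42, limma adjusted p = 0.0201). The part of these markers in the results below was not tested.

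Mitochondrial ribosomal protein genes changed little, and those that passed the test were all higher with selamectin. Of 73 genes, 6 rose and 0 fell at an adjusted p under 0.05 in limma, the linear model fitted to every gene on the array: MRPL1, MRPL49, MRPS11, MRPL9, MRPS35 and MRPL46. The rises amount to 8.22% of the members, where 2.41% of all 18417 genes rose and 2.28% fell, together 4.69%. Among the 11345 genes whose mean level lay within the range of the members, 3.50% rose and 3.25% fell, together 6.75%. At an unadjusted p under 0.05 in limma, 17 members were higher and 1 was lower, against 11.7% and 8.21% of all genes and 14.2% and 11.3% of those in the same level range. The count of 6 depended on single arrays. Leaving out selamectin array 2 took it to 0 in limma, with 12 members still under an unadjusted p of 0.05, and leaving out untreated array 1 or untreated array 3 took it to 1. It was 2 with selamectin array 1 left out and 3 with untreated array 2 left out. Leaving out selamectin array 3, the array that stood apart, gave 6 again, of which 3 were among the genes named above. The share of all genes called moved too, from 4.69% to 1.27% without selamectin array 2. It was 0.96% without untreated array 1, 1.38% without untreated array 3 and 3.24% without selamectin array 1. Without untreated array 2 it was 3.61%, and without selamectin array 3 it was 6.24%. With all 33297 clusters in the fit, limma called 0 members, and 17 were under an unadjusted p of 0.05. In that fit 0.75% of all clusters were called.

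Most members had a positive log2 change. The median of the 73 genes was 0.07, against 0.04 for all genes, and the 95% interval of a single member reached 0.21 to either side of its estimate at the median. The change was positive for 55 of the 73 members, where 63.0% of all genes and 57.5% of those in the same level range were positive. After a second quantile normalization it was positive for 49 of the 73 members and for 9953 of the 18417 genes, against 11597 of the 18417 without that step. The middle 50% of the members lay between 0.01 and 0.19. In 22 members all 3 selamectin arrays lay above all 3 untreated arrays, and in 2 members, MRPL24 and MRPS26, all lay below. The 22 are 30.1% of the members, where 16.0% of all genes and 18.0% of those in the same level range were higher without overlap, and 9.30% and 12.6% were lower without overlap. Folds of at least 1.2 were reached by 12 members upward and by 1 downward, MRPL33, and of the 73 only MRPL1 exceeded 1.5-fold. For 59 of the 73 the 95% interval lay wholly between -0.5 and 0.5 log2 units. On bulk arrays, a change in the share of cells that express a gene and a change in RNA per cell cannot be told apart.

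**Figure D1:**
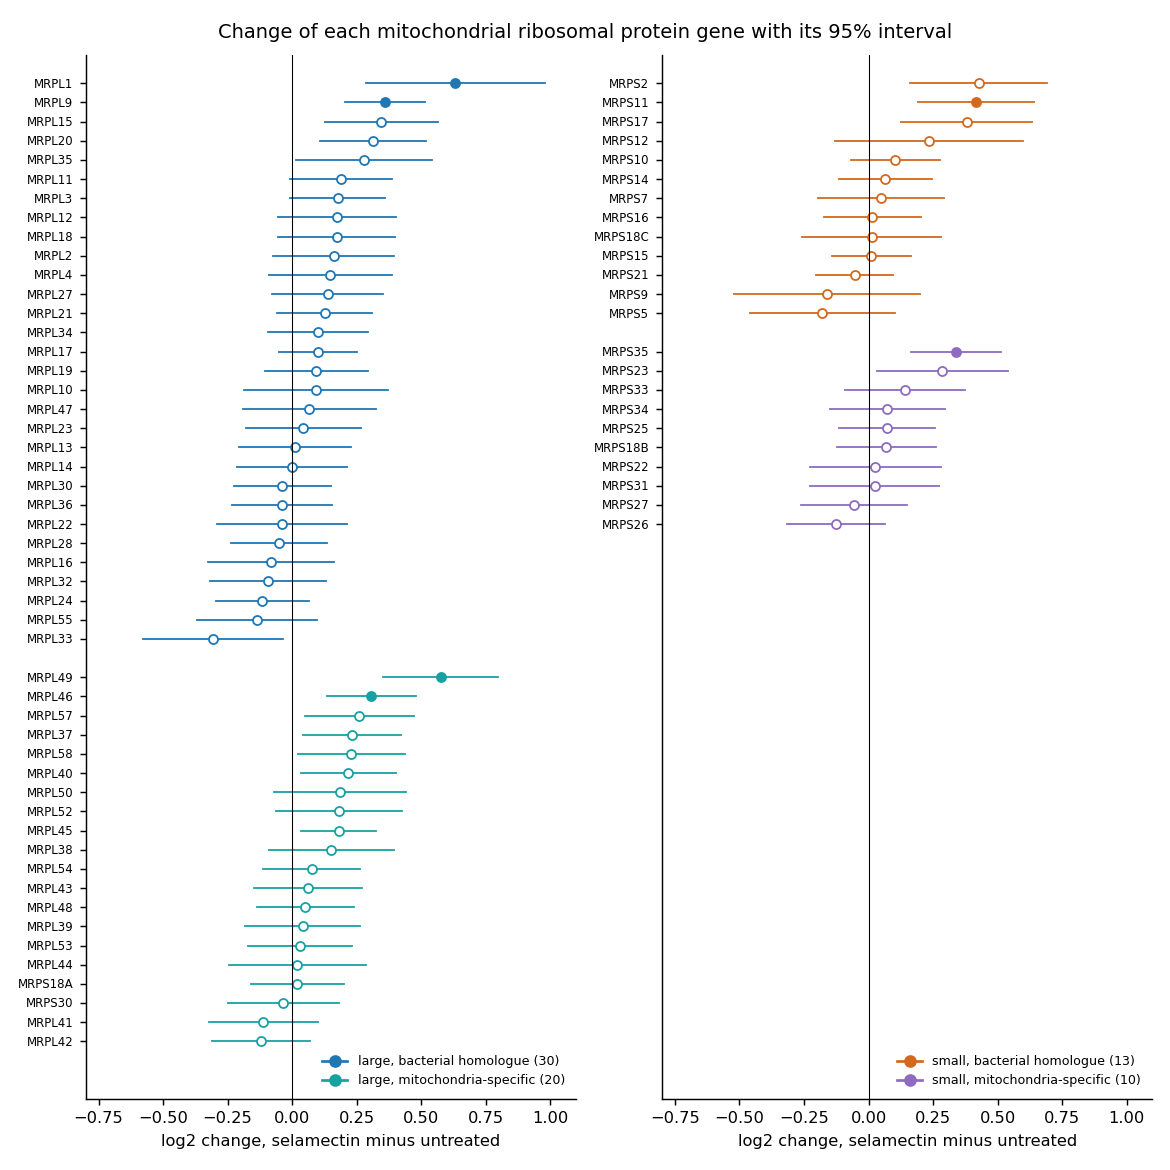
Log2 change (x axis, selamectin minus untreated) of each of the 73 mitochondrial ribosomal protein genes (rows), grouped by subunit and by whether the protein takes the place of a bacterial ribosomal protein (bacterial homologue) or not (mitochondria-specific). Lines are 95% intervals of the limma fit, filled circles mark the 6 genes past an adjusted p of 0.05, and all 6 lie to the right of 0.

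Among the 30 large-subunit proteins that take the place of a bacterial homologue in the ribosome, 2 rose, MRPL1 and MRPL9. MRPL1, whose bacterial counterpart forms the mobile stalk beside the site where spent tRNA leaves, had log2 values of 8.02, 8.09 and 8.47 with selamectin, against 7.74, 7.21 and 7.74 in untreated cells. The groups did not overlap, but each was spread widely, with untreated array 2 far below the other untreated arrays. The mean was 8.20 ± 0.24 with selamectin and 7.57 ± 0.31 untreated (SD, n = 3 each), a 1.55-fold rise with a log2 change of 0.63 ± 0.16 (SE; limma adjusted p = 0.0475). MRPL9, homologous to a bacterial protein that reaches out from the large subunit, had 12.18, 12.18 and 12.14 with selamectin, against 11.85, 11.79 and 11.79 untreated. Its arrays lay close together in both groups, and the gap between groups was several times their spread. The log2 change was 0.36 ± 0.07 (SE), or 1.28-fold (limma adjusted p = 0.0185).

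The other 28 of these proteins did not pass. MRPL15 had log2 values of 10.29, 10.23 and 10.40 with selamectin and of 10.05, 9.80 and 10.04 untreated, with no overlap and a change of 0.35 (limma adjusted p = 0.0765). MRPL20 stood close to it at 0.31 (limma adjusted p = 0.0848), also without overlap. MRPL33, a small zinc-binding protein in bacteria, had the largest negative change in the family, with 9.01, 9.31 and 9.01 with selamectin and 9.64, 9.30 and 9.32 untreated. Selamectin array 2 reached into the untreated range, and the change of -0.31 did not pass (95% interval -0.58 to -0.04, limma adjusted p = 0.191). MRPL12, a protein of the flexible stalk that draws translation factors to the ribosome, averaged 10.94 ± 0.20 with selamectin and 10.76 ± 0.044 untreated, with a change of 0.17 (interval -0.06 to 0.40). MRPL55 stood at -0.14 (interval -0.37 to 0.10). The median over the 30 was 0.10.

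The other 20 large-subunit proteins occupy places that no bacterial ribosomal protein takes and are called mitochondria-specific here for their place, not their descent, since MRPS18A among them is a homologue of a bacterial small-subunit protein. Of these 20, 2 rose, MRPL49 and MRPL46. MRPL49 had log2 values of 11.54, 11.49 and 11.47 with selamectin, against 10.71, 11.08 and 10.98 untreated. All 3 selamectin arrays lay above every untreated array, and most of the spread was in the untreated group, whose array 1 was lowest. The means were 11.50 ± 0.035 with selamectin and 10.92 ± 0.19 untreated, a 1.49-fold rise of 0.58 ± 0.10 log2 units (SE) with the smallest p in the family (limma adjusted p = 0.0121). It was also the call that held best, passing in 5 of 6 fits that each left out 1 array and missing in the one without selamectin array 2 (limma adjusted p = 0.0525). MRPL46 had 11.39, 11.41 and 11.50 with selamectin, against 11.09, 11.14 and 11.15 untreated. Its groups were narrow and did not overlap, with a change of 0.31 ± 0.08 (SE, 1.24-fold), yet it only just passed (limma adjusted p = 0.0495) and lost the call whichever array was left out.

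The members of this class with known separate roles showed small differences. MRPL58, a ribosomal protein that can also release nascent chains from stalled ribosomes, had 10.22, 10.28 and 10.11 with selamectin and 9.86, 10.00 and 10.06 untreated, a change of 0.23 (limma adjusted p = 0.201). MRPL45, which sits at the exit tunnel and holds the ribosome to the inner membrane, had 12.99, 12.93 and 12.92 with selamectin and 12.75, 12.83 and 12.72 untreated, a change of 0.18 (limma adjusted p = 0.155). Neither pair of groups overlapped, and neither gene passed. MRPL44, which has the fold of a ribonuclease, stood at 0.02 (interval -0.24 to 0.29), and MRPL41, reported to bind the apoptosis regulator BCL2, at -0.11 (interval -0.32 to 0.10). MRPL42 stood at -0.12 (interval -0.31 to 0.07). MRPS18A and MRPS30 carry small-subunit symbols but are part of the large subunit in the assembled ribosome. Their changes were 0.02 (interval -0.16 to 0.20) and -0.03 (interval -0.25 to 0.18). Of the 20 proteins, 17 had a positive change and the median was 0.11.

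The small subunit held the other calls, 1 among 13 proteins in the place of a bacterial homologue and 1 among 10 in places specific to mitochondria. MRPS18B is counted among the 10 by its place, although it too is a homologue of the bacterial protein whose place MRPS18C takes. MRPS11, a protein of the platform that binds ribosomal RNA, had log2 values of 12.42, 12.39 and 12.55 with selamectin, against 11.81, 12.19 and 12.12 untreated. The groups did not overlap, with untreated array 1 again the lowest. The rise was 1.33-fold, or 0.42 ± 0.10 log2 units (SE; limma adjusted p = 0.0439). MRPS35, a protein found only in mitochondrial ribosomes, had 11.00, 10.97 and 10.99 with selamectin, against 10.60, 10.66 and 10.69 untreated. Its selamectin arrays were nearly identical, and the change was 0.34 ± 0.08 (SE, 1.27-fold; limma adjusted p = 0.0373).

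MRPS2 and MRPS17 came next without passing. MRPS2 had 11.55, 11.51 and 11.29 with selamectin and 10.75, 11.20 and 11.12 untreated, a change of 0.43 (limma adjusted p = 0.0718). The closest arrays of its 2 groups, selamectin array 3 and untreated array 2, lay within 0.1 log2 units of each other. MRPS17 had 9.94, 10.11 and 9.76 with selamectin and 9.50, 9.43 and 9.73 untreated, a change of 0.38 (limma adjusted p = 0.0909). MRPS12, which lines the decoding site, had 9.49, 9.63 and 10.21 with selamectin and 9.41, 9.71 and 9.50 untreated. Its change of 0.23 (interval -0.13 to 0.60) rested on selamectin array 3, and the other arrays of both groups were mixed together. MRPS5 and MRPS9 stood at -0.18 (interval -0.46 to 0.10) and -0.16 (interval -0.52 to 0.20), and MRPS26 at -0.13 (interval -0.32 to 0.06). MRPS18B and MRPS18C, paralogues of MRPS18A that stay in the small subunit, stood at 0.07 (interval -0.12 to 0.26) and 0.01 (interval -0.26 to 0.28). The median over the 23 small-subunit proteins was 0.07, against 0.10 over the 50 of the large subunit, and the difference was not tested.

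**Figure D2:**
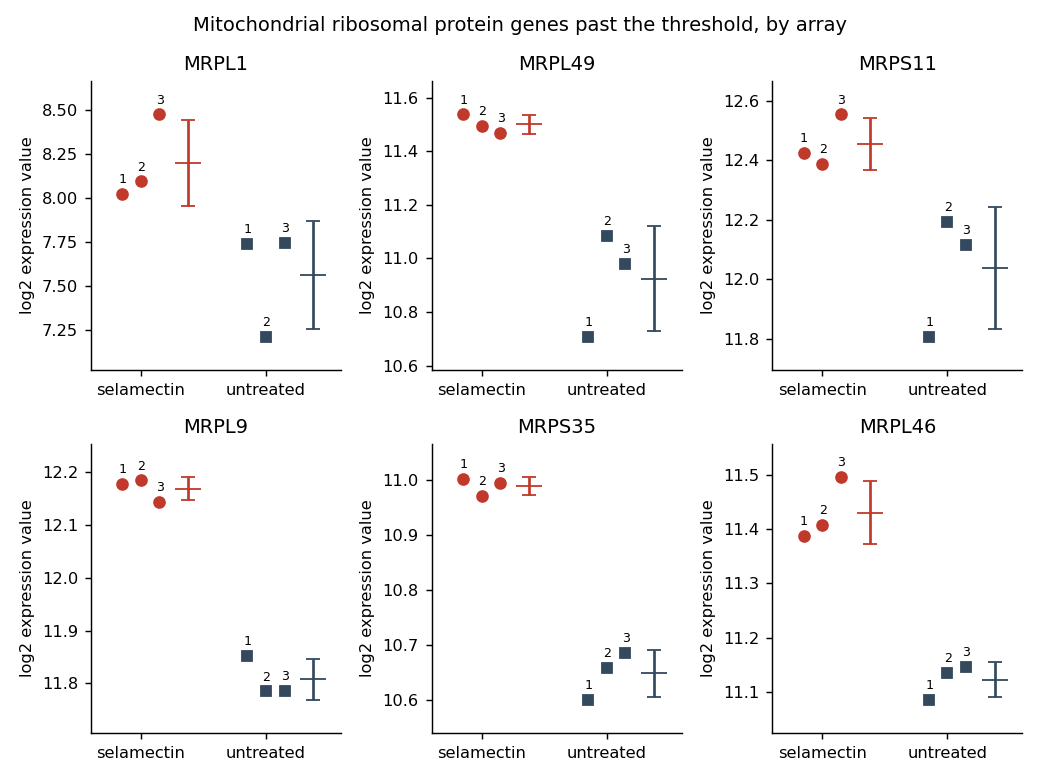
Log2 expression value (y axis, a scale of its own in each panel that does not start at 0) on each array, with its number, for the 6 genes past the threshold. Circles are selamectin arrays, squares are untreated arrays, and the bars give the mean and SD of 3 arrays; in every panel the circles lie above the squares.

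MRPS11 and MRPL46, which both rose, are neighbours on chromosome 15 that are read away from each other. Their RefSeq starts lie 320 bases apart (build GRCh38.p14), so that the windows from 250 bases before to 50 bases after each start share 181 bases. The windows of both genes are shown for that reason, each 5′ to 3′ on its own strand. MRPL49 is shown as the gene with the smallest p, and MRPS18A as a gene near 0 whose window holds matches to both motifs described below. Capitals mark matches to CCGGAAG or AAGATGGC on either strand, and the MRPS11 window holds neither. The windows are chr15:88467458-88467757 (+) for MRPS11, chr15:88467339-88467638 (-) for MRPL46, chr11:65122071-65122370 (+) for MRPL49 and chr6:43687742-43688041 (-) for MRPS18A.
MRPS11: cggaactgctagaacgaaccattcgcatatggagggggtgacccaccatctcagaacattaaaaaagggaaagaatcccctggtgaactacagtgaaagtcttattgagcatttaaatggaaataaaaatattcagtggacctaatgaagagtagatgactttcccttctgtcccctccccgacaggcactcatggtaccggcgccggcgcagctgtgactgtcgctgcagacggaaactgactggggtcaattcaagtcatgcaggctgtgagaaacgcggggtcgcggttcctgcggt
MRPL46: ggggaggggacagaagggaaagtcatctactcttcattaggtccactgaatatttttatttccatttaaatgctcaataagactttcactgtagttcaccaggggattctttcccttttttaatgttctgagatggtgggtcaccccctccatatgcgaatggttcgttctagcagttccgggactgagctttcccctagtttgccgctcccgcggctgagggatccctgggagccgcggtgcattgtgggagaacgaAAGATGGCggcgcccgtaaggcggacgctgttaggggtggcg
MRPL49: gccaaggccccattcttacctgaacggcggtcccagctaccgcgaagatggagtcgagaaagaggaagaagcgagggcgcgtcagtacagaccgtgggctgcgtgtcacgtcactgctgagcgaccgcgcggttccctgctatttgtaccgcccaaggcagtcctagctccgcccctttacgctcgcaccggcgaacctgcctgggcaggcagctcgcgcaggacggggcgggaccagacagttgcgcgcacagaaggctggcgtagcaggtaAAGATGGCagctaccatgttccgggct
MRPS18A: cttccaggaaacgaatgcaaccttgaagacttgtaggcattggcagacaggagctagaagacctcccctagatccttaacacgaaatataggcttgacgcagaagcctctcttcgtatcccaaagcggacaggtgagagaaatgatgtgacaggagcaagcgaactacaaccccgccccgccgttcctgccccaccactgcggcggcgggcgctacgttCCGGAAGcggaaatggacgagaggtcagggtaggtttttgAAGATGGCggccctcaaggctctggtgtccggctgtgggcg

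Starts that face away from another gene were common in the family. RefSeq promoter windows were found for 66 of the 73 members, and 25 of the 66 (37.9%) had a start on the other strand within 1000 bases upstream or overlapping by under 300 bases. The share was 24.3% of the 14239 named genes on the array with a window. Of the 6 genes that rose, 5 were of this kind: MRPS11 and MRPL46 with each other, MRPL49 with FAU, MRPL9 with OAZ3 and MRPS35 with a noncoding transcript that was not measured. FAU, which encodes a cytosolic ribosomal protein joined to a ubiquitin-like part, starts 49 bases from MRPL49 and had log2 values of 11.83, 11.93 and 12.06 with selamectin, against 11.41, 11.89 and 11.62 untreated. Its groups overlapped, and its change of 0.30 did not pass (limma adjusted p = 0.178), while MRPL49 beside it passed. The difference between the 2 genes was not tested. OAZ3, an antizyme of the testis, stood at 6.58 ± 0.087 with selamectin and 6.54 ± 0.049 untreated, with a change of 0.04 (interval -0.13 to 0.22) beside the rise of MRPL9. Both OAZ3 means lay below the all-gene median level of 8.2, and changes of dim genes are compressed in these values.

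Over all 18 measured partners outside the family, 1 rose and 0 fell, and 15 had a positive change, with a median of 0.18 and a range from -0.33 to 0.46, where 2.41% of all genes rose, 2.28% fell and 63.0% were positive. The one that rose was SKA3, a protein that ties kinetochores to spindle microtubules, whose start lies 106 bases from that of MRPL57. SKA3 had 10.46, 10.45 and 10.49 with selamectin, against 10.04, 9.97 and 10.03 untreated (limma adjusted p = 0.0133). It kept its call in 3 of 6 fits that left out an array and lost it without selamectin array 2, untreated array 1 or untreated array 3 (limma adjusted p up to 0.066). MRPL57 itself had 8.91, 9.11 and 8.98 with selamectin and 8.77, 8.80 and 8.65 untreated, without overlap, and its change of 0.26 did not pass (limma adjusted p = 0.157). MRPS12 shares its start region with SARS2, the mitochondrial seryl-tRNA synthetase, and SARS2 changed by 0.14 (interval -0.06 to 0.34). These partners were picked by position in RefSeq and named after their values were seen.

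Some promoter letters were found in a larger share of members than of all genes. CCGGAAG or its reverse complement, the core bound by ETS factors such as GABPA, lay in the window of 29 of 66 members (43.9%), against 16.8% of the 14239 genes. AAGATGGC or its reverse complement, a core bound by YY1, lay in 19 of 66 (28.8%), against 4.86%. Some members have more than 1 start, and over all 82 member windows AAGATGGC had 22 matches, in which a site can count under more than 1 start. Of these matches, 14 lay within the first 50 transcribed bases, where each window ends, as in the MRPL46, MRPL49 and MRPS18A windows above. Because AAGATGGC holds ATG, it is also the kind of sequence found around a start codon, and the letters alone do not tell a factor's site from a codon. The NRF1 consensus was found in 13.6% of members and 10.1% of genes. CACGTG was found in 13.6% and 10.9%, and TATAAA in 4.55% and 11.9%; each motif was searched on both strands. Cytosolic ribosomal protein genes had CCGGAAG in 37.7% and AAGATGGC in 9.43% of 53 genes with a window, and respiratory chain genes had them in 30.8% and 16.9% of 65.

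Median changes with and without either motif rounded to the same value. None of the 6 genes that rose held CCGGAAG, and 2 held AAGATGGC, MRPL46 and MRPL49. Members with CCGGAAG had a median log2 change of 0.07 (n = 29), and members without it also 0.07 (n = 37). The corresponding medians for AAGATGGC were 0.07 with it (n = 19) and 0.07 without it (n = 47). A letter match describes the sequence only and does not show that a factor was bound in these cells.

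Array by array, the family stood slightly higher on each selamectin array. The median deviation of the 73 genes from their own untreated means was 0.08, 0.11 and 0.11 on selamectin arrays 1, 2 and 3, and 0.005, -0.002 and -0.007 on untreated arrays 1, 2 and 3. All genes had medians of 0.05, 0.07 and 0.009 on the selamectin arrays and of -0.02, 0.01 and 0.02 on the untreated arrays. Selamectin array 3, where the median of all genes was lowest among the treated arrays, held a family median as high as that of array 2. It had the highest of the 3 selamectin values for 35 members and the lowest for 24. Among the untreated arrays, array 2 held the lowest value for 30 members and the highest for 30, while array 3 held the highest for only 12.

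**Figure D3:**
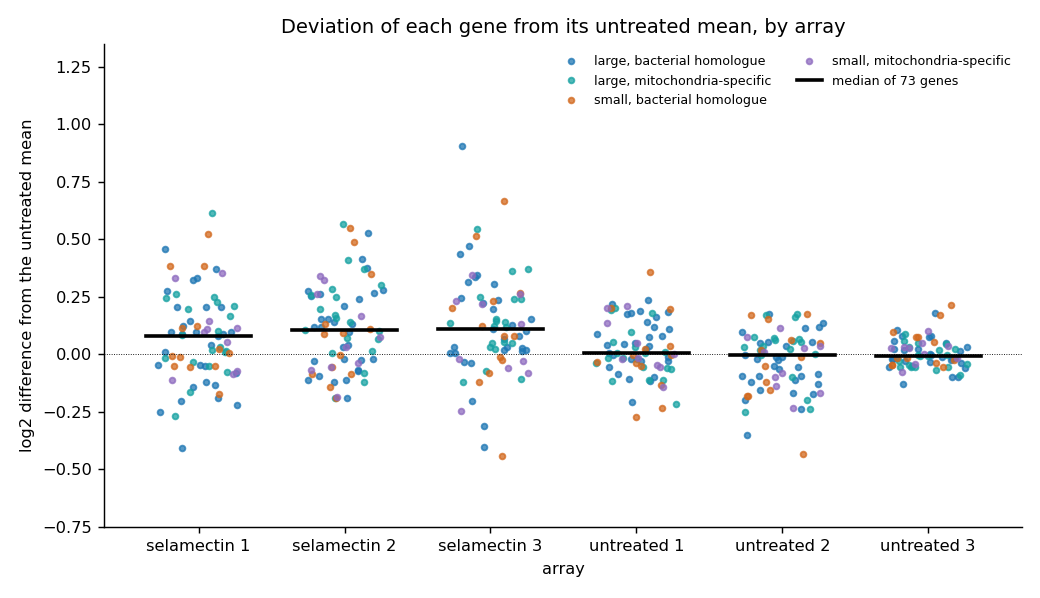
Log2 difference of each of the 73 genes from its own untreated mean (y axis) on each of the 6 arrays (x axis), with points coloured by subunit class and a black bar at the median. The bars lie at 0.08, 0.11 and 0.11 on the selamectin arrays and within 0.01 of 0 on the untreated arrays, whose deviations are centred on 0 by construction.

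The clusters of the family read well above the middle of the array, and most were steady between replicates. Their means over the 6 arrays ran from 7.34 for MRPS33, 7.59 for MRPS18C and 7.69 for MRPL54 up to 12.44 for MRPS21, 12.83 for MRPS15 and 12.86 for MRPL45. The family median was 10.87, against 8.23 for all genes, and 68 of 73 lay above the median gene. Probes differ in brightness, so the order of these values is not an order of transcript amounts. The median SD within a group was 0.11 with selamectin and 0.10 untreated. An SD above 0.25 was found for 2 genes in each group, MRPS12 and MRPL10 with selamectin and MRPS9 and MRPL1 untreated. MRPS9 was the least steady, with 8.52, 8.50 and 8.57 with selamectin and 9.05, 8.26 and 8.77 untreated, so that the selamectin arrays fell inside the untreated range.

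**Figure D4:**
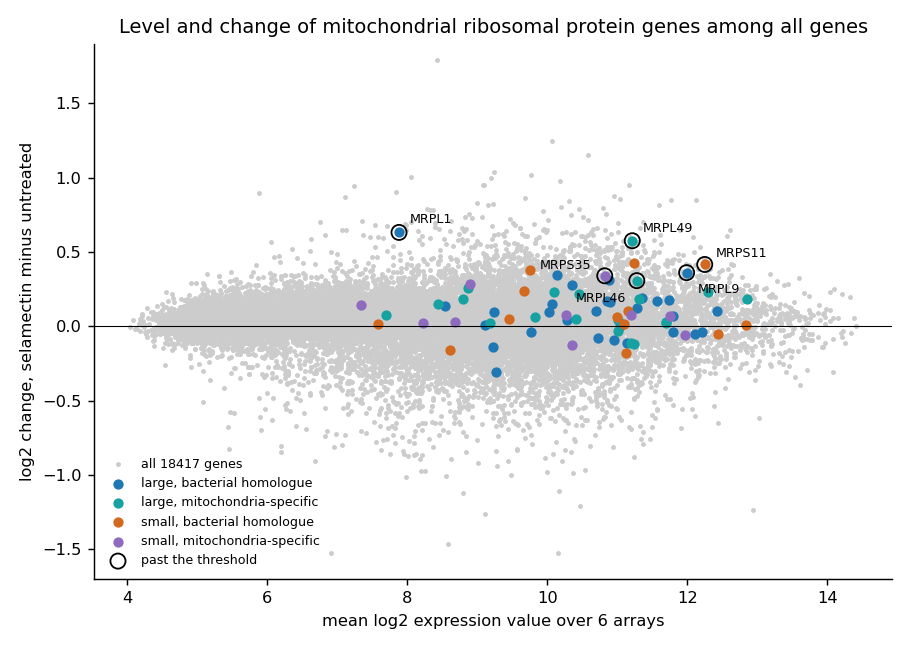
Log2 change (y axis) against mean log2 expression value over the 6 arrays (x axis) for all 18417 genes in grey and the 73 mitochondrial ribosomal protein genes in colour, with the 6 past the threshold ringed. The family occupies the middle and right of the cloud, from 7.34 to 12.86, and its changes run from -0.31 to 0.63, inside the range of all genes.

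Ribosome assembly factors held 3 genes that rose. They and the lists that follow were drawn up by function. Of 28 assembly factors, 3 rose and 0 fell, MRM2, GTPBP10 and TRUB2, with 22 positive changes and a median of 0.12, where 2.41% of all genes rose, 2.28% fell and 63.0% were positive. MRM2, a methyltransferase of the mitochondrial ribosomal RNA, had 10.67, 10.80 and 10.43 with selamectin, against 10.05, 10.09 and 10.11 untreated, a rise of 0.55 ± 0.10 log2 units (SE, 1.47-fold; limma adjusted p = 0.0158). GTPBP10, a GTPase of late large-subunit assembly, rose by 0.38 (limma adjusted p = 0.0392), and TRUB2, a pseudouridine synthase, by 0.33 (limma adjusted p = 0.0497). Their groups did not overlap. MRM2 kept its call in 3 of 6 fits that left out an array, TRUB2 in 1 and GTPBP10 in 0.

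The remaining machinery of mitochondrial translation held 1 call per list or none, where 2.41% of all genes rose and 2.28% fell. Among 4 measured subunits that lack the MRP prefix limma called none, with 1 under an unadjusted p of 0.05, and 3 of the 4 were negative. CHCHD1, a small-subunit protein, had 9.84, 9.82 and 9.77 with selamectin, against 10.15, 10.05 and 10.03 untreated, without overlap, and its change of -0.27 did not pass (limma adjusted p = 0.108). DAP3, the small-subunit protein also known as death-associated protein, stood at -0.17 (interval -0.39 to 0.05). Of 15 translation factors and accessory proteins, 1 fell, the release factor MTRF1. Its values were 8.61, 8.45 and 8.50 with selamectin, against 8.90, 8.79 and 9.02 untreated (log2 change -0.39, limma adjusted p = 0.0499). Of 21 mitochondrial tRNA synthetases and amidotransferase subunits, 1 rose, CARS2, which charges tRNA with cysteine. CARS2 had 11.51, 11.56 and 11.45 with selamectin, against 10.80, 10.88 and 11.10 untreated, a rise of 0.58 ± 0.10 log2 units (SE; limma adjusted p = 0.00948). It kept its call in 5 of 6 fits that left out an array and missed without untreated array 1 (limma adjusted p = 0.0505), while MTRF1 kept its call in 1.

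Genes for the replication and transcription of mitochondrial DNA and the processing of its RNA gave 1 rise among 19. Of all genes, 2.41% rose and 2.28% fell. HSD17B10, a subunit of mitochondrial ribonuclease P that is also a dehydrogenase, had 11.41, 11.82 and 11.71 with selamectin, against 11.22, 11.13 and 11.24 untreated. It rose by 0.45 log2 units (limma adjusted p = 0.0392) and kept that call in 1 of 6 fits that left out an array. Limma called none of the 9 regulators of mitochondrial biogenesis, with 1 under an unadjusted p of 0.05, and their median was -0.01. PPARGC1A, a coactivator of mitochondrial genes, stood at 0.24 (interval 0.01 to 0.46, limma adjusted p = 0.231) with overlapping groups, and ESRRA, a nuclear receptor it works with, at 0.17 (interval -0.04 to 0.38). GABPA, YY1 and NRF1, factors tied to the promoter letters above, stood at -0.07 (interval -0.28 to 0.14), -0.09 (interval -0.27 to 0.08) and -0.03 (interval -0.22 to 0.17).

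**Figure D5:**
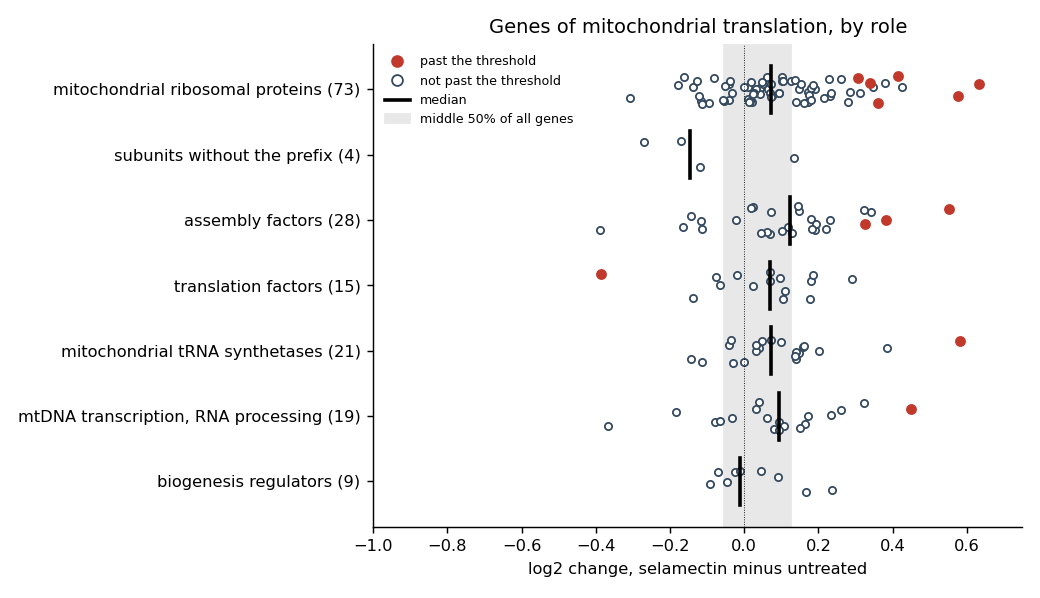
Log2 change (x axis, selamectin minus untreated) of each gene in 7 groups of mitochondrial translation genes (rows, number of measured genes in brackets), with filled circles past an adjusted p of 0.05 and a black bar at each median. The grey band holds the middle 50% of all genes, from -0.05 to 0.13. All 7 medians but that of the subunits without the prefix (-0.15) lie inside it. The row for mtDNA transcription includes replication genes, and the row for translation factors includes accessory proteins.

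The cytosolic ribosome and the respiratory chain are given beside the mitochondrial ribosome for comparison. Of 64 cytosolic ribosomal protein genes, 1 rose and 0 fell, with 23 positive changes and a median of -0.03. Of 77 nuclear-encoded subunits of the respiratory chain and ATP synthase, 1 rose and 0 fell, with 37 positive changes and a median of -0.01. Over all genes on the array, 2.41% rose, 2.28% fell and 63.0% were positive. The genes that rose were RPL10 (0.58, limma adjusted p = 0.0113) and NDUFB10 (0.43, limma adjusted p = 0.0266), named here after their values were seen. RPL10 kept its call in 3 of 6 fits that left out an array, losing it without selamectin array 2, untreated array 1 or untreated array 3. NDUFB10 kept its call only without selamectin array 3, in 1 of 6. At an unadjusted p under 0.05 in limma the cytosolic list held 3 higher and 9 lower, and the respiratory list 5 higher and 5 lower. The 73 genes of the mitochondrial ribosome held 17 and 1. At that same p, 11.7% of all genes were higher and 8.21% lower. No test of the difference between families was run.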

How the data were processed

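The authors normalized the arrays by RMA and deposited log2 values, 1 for each of 33297 clusters on 6 arrays; RMA is named in the submitters' processing notes, and the log base is read from it and the range of the values. The notes also name Affymetrix Expression Console and Transcriptome Analysis Console, with no version, and the genome build is not given. RMA as usually run normalizes arrays together, which removes a shift shared by all genes. Changes of dim genes are also compressed in RMA values.

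Arrays were grouped by title. Clusters with 1 symbol (19460) were named from the platform annotation, updated through RefSeq by Entrez number, and the brightest cluster stood for each of 18417 genes. Another 4 clusters pairing a prefix symbol with other genes were left out. MRPL20 and MRPS18B lie on several clusters with identical values. The test was limma's moderated one (lmFit, eBayes with trend; limma 3.58.1, R 4.3.3), selamectin minus untreated, two-sided, Benjamini-Hochberg adjustment over all 18417 genes, threshold 0.05, with no replicate block; the procedure was tested on simulated data. Intervals are 95% intervals of the fit.

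Named members are those past the threshold, the 6 highest and 6 lowest changes, the 3 highest and 3 lowest levels, and genes of separate role; from each other list, genes past the threshold or the 2 smallest p. MRPL15, MRPL20, MRPL24, MRPL57, MRPL10, the neighbours and the factors of the motifs were added after their values were seen. Members and lists were chosen with earlier results of these data known. Alternatives were another quantile normalization, median centring, a fit without trend, a robust fit, weights per array, a filter on dim genes, clusters averaged by gene, all clusters, a replicate block and leaving out each array. Promoter windows and starts come from RefSeq (GRCh38.p14). No scan date or detection call was used, so no batch was tested, and the number of arrays limits the precision. The design text calls the replicates independent without saying how, so p-values measure the spread between these samples, which may be technical.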

Additional observations from a re-analysis of the deposited data

How the results depend on the processing

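The count of 6 members past the threshold was 3 after a second quantile normalization, 3 with the replicate block, 14 with array weights and 0 with every cluster in the fit (limma; 17 at an unadjusted p under 0.05), and ranged from 0 to 6 when 1 array was left out. It was 4 with median-centred arrays and without the intensity trend, and 6 with the dim-gene filter, the robust fit and averaged clusters. In every setting with a call all calls were higher with selamectin. The weights gave untreated array 3 5.11, against 0.45 to 1.22 for the others, so the 14 lean on that array. The count over all genes, 864, was 3286 with array weights and 249 with every cluster, and ranged from 176 to 1149 with 1 array left out. It was 905 after the second quantile normalization and 650 with the replicate block. In the main fit 8.22% of members and 4.69% of all genes were called. After the second quantile normalization the shares were 4.11% and 4.91%, with the replicate block 4.11% and 3.53%, and with array weights 19.2% and 17.8%. The family median of 0.07 was 0.0502 after the second quantile normalization and ranged from 0.0739 to 0.0945 with 1 array left out. The median over all genes was 0.0441 in the main fit and 0.0124 after the second quantile normalization.

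In settings that kept all 6 arrays, MRPL49 and MRPL9 passed in 8 of 9, MRPS35 in 7, and MRPL1, MRPS11 and MRPL46 in 5; with 1 array left out they passed in 5, 2, 1, 1, 1 and 0 of 6. No log2 change of these 6 genes reversed. With the replicate block, MRPL46, MRPS11 and MRPS35 lost their calls, and GTPBP10, TRUB2, MTRF1, HSD17B10 and NDUFB10 as well. Deviations of arrays with the same number correlated at -0.01, 0.24 and -0.14 across genes, and those with different numbers at -0.21 to 0.30. Deviations centred within groups of 3 arrays cannot show whether the numbers mark a shared batch, so pairing is not settled. With 3 arrays a group, changes under about 0.2 log2 units lie within the interval of most members, and without detection calls dim clusters cannot be told from background.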
